A study of Rattus norvegicus with 2 samples.

Results

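Olfactory receptor genes were followed in whole kidney RNA of PCK rats, whose Pkhd1 mutation gives them cystic kidneys comparable to recessive human polycystic kidney disease. A probe was taken as an olfactory receptor probe where its RefSeq accession led to a rat gene named Or or Olr plus a number, and it was kept where the scanner software marked it well above background on both arrays. Of 1090 olfactory receptor probes for 1086 genes, 229 probes for 229 genes met this rule (21.0%). The members were chosen by the measured signal on both arrays, so detection and brightness are described here and not tested.

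The vehicle group was given 0.5% DMSO and the pioglitazone group 10 mg/kg of pioglitazone, which activates PPAR-gamma. Dosing was daily by gavage, beginning at 4 and ending at 20 weeks of age. All animals on the arrays were female PCK rats, and +/+ rats were not analysed here. Kidney RNA was pooled within a group, labelled with Cy3 and hybridised to 1 Agilent array per group, and the texts name both 5 females and 3 rats as the source of a pool. Neither group has a second array, so no p-value was computed, and the number of arrays limits the precision of every value below.

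Olfactory receptors are G protein-coupled receptors and form the largest gene family of mammals. In the olfactory epithelium a sensory neuron expresses a single receptor gene, and an odorant bound to it acts through the G protein Golf (Gnal), adenylyl cyclase 3 (Adcy3) and a cyclic nucleotide-gated channel (Cnga2, Cnga4, Cngb1). Some olfactory receptors are also transcribed outside the nose, and in mouse kidney Olfr78 is known in the afferent arteriole as a receptor for short-chain fatty acids. The genes lie in clusters of close copies, and most have a coding sequence without introns.

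Because copies are alike, the start of the coding sequence is shown for the 5 receptors with the brightest spots, each above a copy most like it among rat olfactory receptors. Or2ak6 has 2 such copies, and the 1 with the more alike upstream sequence is printed. Sequences are the first 50 coding bases, 5′ to 3′, from RefSeq on the GRCr8 build, and capitals mark the bases at which the copies of a pair differ, compared position by position without gaps. They were read from windows around the annotated gene start, and 1053 of 1084 such receptor windows (97.1%) have ATG at that start, so the windows show coding sequence and not a tested promoter. The probe sequences were not used here, so where a probe lies in its gene is not given.
Or2ak6: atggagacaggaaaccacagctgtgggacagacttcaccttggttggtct
Or2ak6e: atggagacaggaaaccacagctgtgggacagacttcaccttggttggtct
Or8w1b: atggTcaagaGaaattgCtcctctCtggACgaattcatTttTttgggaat
Or8w1: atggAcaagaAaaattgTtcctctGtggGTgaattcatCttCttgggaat
Or2t48e: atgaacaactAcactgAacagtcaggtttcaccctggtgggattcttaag
Or2t48b: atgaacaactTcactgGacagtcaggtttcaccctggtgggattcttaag
Or13a27e: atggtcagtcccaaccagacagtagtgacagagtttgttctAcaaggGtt
Or13a23: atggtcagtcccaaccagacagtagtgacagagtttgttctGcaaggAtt
Or4f7c: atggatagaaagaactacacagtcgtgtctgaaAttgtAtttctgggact
Or4f7b: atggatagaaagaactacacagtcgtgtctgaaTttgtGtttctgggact

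These windows lie at chr10:43699264-43699313 (plus strand) for Or2ak6 and chr10:43573289-43573338 (plus) for Or2ak6e. Those of Or8w1b and Or8w1 are chr3:93357654-93357703 and chr3:93512294-93512343, both on the minus strand. Those of Or2t48e and Or2t48b are chr10:43191666-43191715 and chr10:43260042-43260091, both minus. Those of Or13a27e and Or13a23 are chr1:205068855-205068904 and chr1:204947426-204947475, both plus. Those of Or4f7c and Or4f7b are chr3:118914291-118914340 and chr3:118844219-118844268, both minus.

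Most olfactory receptor probes were at the level of the background. Their median processed signal, which is the spot's intensity after the software's background and trend correction, was 2.04 on the vehicle array and 1.95 on the pioglitazone array. The 153 negative control spots had medians of 1.75 and 1.61. Of the 1090 receptor probes, 798 (73.2%) were well above background on neither array. Among all other probes 28531 of 39908 (71.5%) were well above background on both arrays, against the 21.0% of receptor probes. The kidney identity of the RNA was plain in the same arrays: uromodulin (Umod), made by the thick ascending limb, read 195000 and 220000, and the proximal tubule genes Lrp2 and Slc34a1 read 52900 and 57100, and 23900 and 25900. Of 8 kidney markers 7 had a probe, and all 7 were well above background on both arrays, while Slc12a1 had no named probe.

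**Figure D1:**
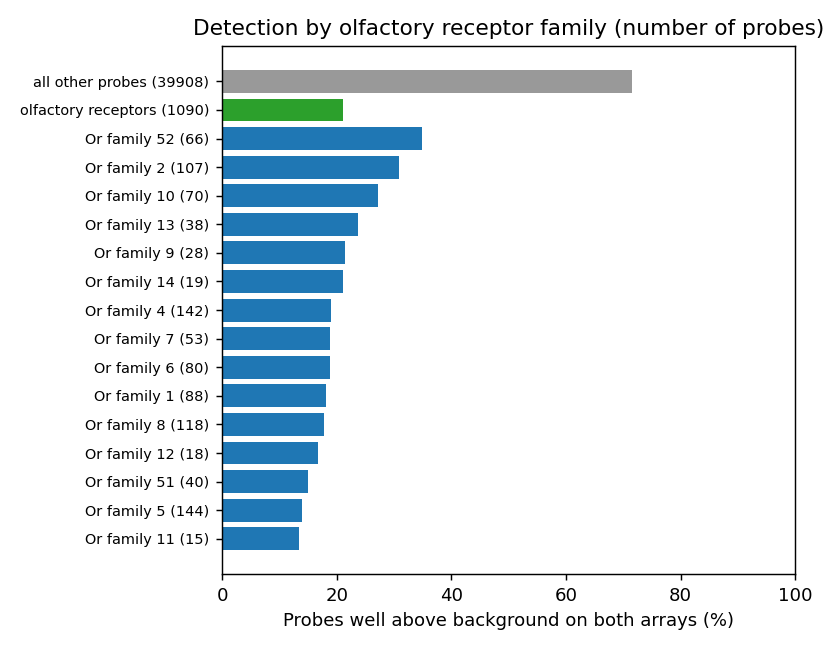
Share of probes (%) that were well above background on both arrays, for all other probes, all olfactory receptor probes and each olfactory receptor family with the number of its probes in parentheses. All families with 15 or more probes lie between 13.3% (family 11) and 34.8% (family 52), below the 71.5% of other probes.

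Members were found in both receptor classes and in most families, though in none of the 2 probes of family 55. Of the class I receptors, the group first described in fish (families 51 to 56), 30 of 114 probes (26.3%) were members, and of class II (families 1 to 14) 186 of 924 (20.1%). The remaining 13 members were among 52 probes whose symbols carry no family number. Family 52 had 23 members of 66 probes (34.8%) and family 2 had 33 (30.8%), while family 5 had 20 of 144 (13.9%) and family 51 had 6 of 40 (15%). Among subfamilies with 8 or more probes, Or10d and Or2y each had 5 members of 10 probes and Or2t had 6 of 14 (42.9%), whereas Or8g had 2 of 29 (6.90%) Or4p had 0 of 10, and Or7e and Or1o had 0 of 8 each.

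Other chemosensory receptors had few probes, with shares from 0% to 50%. Of the trace amine-associated receptors (Taar) 3 of 15 probes (20.0%) were well above background on both arrays, of the vomeronasal receptors 1 of 7 Vom1r and 5 of 38 Vom2r probes, and of the bitter taste receptors (Tas2r) 0 of 12. The sweet and umami taste receptor family (Tas1r) had 1 of 2. Differences between these shares were not tested.

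The 229 members were dim. On the vehicle array their signals ran from 8.06 to 3080 with a median of 25.4, and on the pioglitazone array from 7.93 to 3640 with a median of 28.3. The median over the 28760 probes measured on both arrays was 157 and 163. The median member lay at the 17.1th and 18.6th percentile of these probes. Signals below 20 were read for 100 members on the vehicle array and 82 on the pioglitazone array, and signals below 50 for 166 and 155. Before the software's correction, the members' spots stood a median of 30.5 and 36.0 above their local background. A signal also depends on the probe, so signals of different genes are given as spot brightness and not as relative amounts of transcript. Each member had a single spot, so no repeat within an array was at hand.

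The members just inside the rule were Olr1093 with 8.06 on the vehicle array and 7.94 on the pioglitazone array, Or1l4 with 9.34 and 7.93, and Or4k5 with 8.84 and 8.80. Of the receptors outside it, those brightest by mean log2 signal of both arrays were Or5b102 with 58.5 and 6.71, Or8k27 with 33.1 and 5.57, and Or10al27 with 9.0 and 18.6, each well above background on 1 array alone. The lowest signal that the software marked well above background was 7.66 on the vehicle array and 7.16 on the pioglitazone array, and the highest negative control spot read 4.45 and 16.2. On the pioglitazone array that spot was the single negative control marked well above background, and the next read 5.03. Of all 1090 receptor probes, 178 read above the highest negative control of each array. These were counted without the rule for members, so they include receptors outside it, such as Or10al27.

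Bright receptors, defined as those above the median of all measured probes on both arrays, numbered 21. They were 9.17% of the members and 1.93% of all olfactory receptor probes. These medians, 157 and 163, lie above 10 times the highest negative control of each array, so all 21 pass that limit by definition. Of the 21, 5 lay above the 75th percentile of measured probes, which was 836 and 889.

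The receptor with the brightest spot was Or2ak6, at 3080 on the vehicle array and 3640 on the pioglitazone array, the 89.0th and 89.7th percentile of measured probes. Or8w1b read 2420 and 3120, and Or2t48e read 1720 and 1980. Or13a27e read 1160 and 1480, and Or4f7c read 1110 and 1290. All 5 were higher on the pioglitazone array, by log2 differences of 0.12 to 0.29 after scaling, each with a technical error of 0.20. That error joins the errors the software gives for the 2 spots and holds no spread between animals. It was the same for all 5 and does not come from repeat spots. The spots of these 5 were as bright before correction, from 3435 and 4058 above local background for Or2ak6 down to 1025 and 1237 for Or4f7c.

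A middle set of 8 read between 375 and 708. Or2t47d gave 654 on the vehicle array and 708 on the pioglitazone array, Or6z1 548 and 654, Or2n1e 479 and 658, and Or10am5 549 and 466. Or2n1e had the largest positive log2 difference of the bright receptors, 0.38, and Or10am5 the largest negative one, -0.32. Or13l2 gave 485 and 486, Or6al2 382 and 423, Or1f26 377 and 421, and Or5aq1d 375 and 418. For these 4 the arrays differed by -0.08 to 0.08 on the log2 scale, within the technical error of 0.20.

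The other 8 lay nearer the median of measured probes. Or9i1b read 265 and 319, Or52p1 258 and 298, Or2t48 245 and 282, and Or2v2 228 and 268 on the vehicle and pioglitazone arrays. Olr193 read 188 and 208, Or2t45 166 and 210, Or2d36b 181 and 189, and Or8c11 167 and 175. Their log2 differences ran from -0.02 for Or2d36b to 0.26 for Or2t45. Across the 21 bright receptors the median difference was 0.12 and 17 were positive. All 21 lay within 2 technical errors of 0, and none was 1.5-fold apart. Among all 14107 probes above both medians, 18 were higher and 62 lower by 1.5-fold and 2 technical errors.

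**Figure D2:**
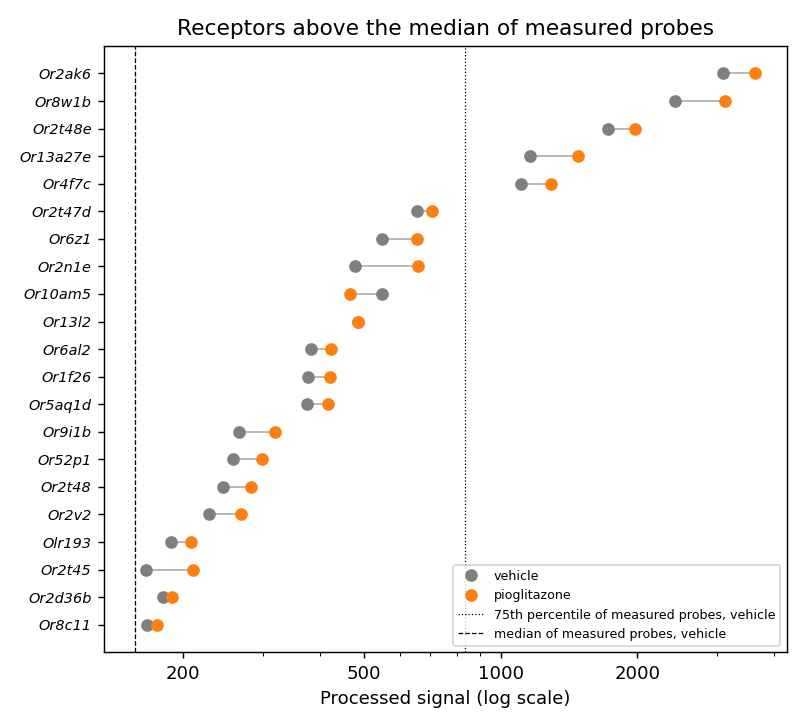
Processed signal (log scale) of the 21 bright olfactory receptors on the vehicle array (grey) and the pioglitazone array (orange), in order of brightness. Lines mark the median (157) and the 75th percentile (836) of all measured probes on the vehicle array; 5 receptors lie above the latter, and the arrays nearly coincide for Or13l2.

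By family and place the bright receptors were unevenly spread, which is given as a description. Family 2 held 8 of the 21, and of those 4 were in the subfamily Or2t (Or2t48e, Or2t47d, Or2t48 and Or2t45) out of its 14 probes. Class I held 1, Or52p1. On chromosome 10, 36 of 111 receptors (32.4%) were members and 7 were bright, against 45 members of 279 (16.1%) and 3 bright on chromosome 3. On chromosome 1, 8 were bright, on chromosomes 2, 8 and 20, 1 each. The chromosome 10 cluster between Lypd9 and Lypd8l2 held 3 bright receptors among 13 with a probe.

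Neighbours in gene order were also counted. Of the receptors with a probe that lie directly beside a bright receptor, 11 of 29 (37.9%) were members, against 72 of 348 (20.7%) beside a member and 276 of 1356 (20.4%) beside a receptor that was not a member. A gene that is no olfactory receptor lay directly beside 7 of 21 bright receptors (33.3%), 47 of 229 members (20.5%) and 147 of 857 others (17.2%). Or10am5 and Or6z1 are neighbours on chromosome 1 and both were bright. Or13l2 on chromosome 2 lies beside Chd1l, a chromatin remodeller gene, whose probe read 3360 and 4360. Clic2 beside Or2n1e read 173 and 155. Zim1 beside Or10am5 (1.54 and 13.6) and Nlrp12 beside Or6al2 (7.61 and 9.5) were not well above background on both arrays. The other genes directly beside bright receptors that are no olfactory receptors had no named probe. The median gene span was 942 bp for bright receptors, members and others alike.

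The copies most like the bright receptors were mostly not members, as was the case for receptor probes in general. Among the 17 bright receptors with a coding start window, the closest other receptor shared a median of 94.0% of the first 50 bases, against 88.0% for 189 members and 87.0% for 726 receptors with a probe that were not members. For 10 of the 17 the closest copy shared 90% or more, and each of these copies had a named probe of its own. A single closest copy was found for 8 of the 10, of which 7 were not members and 1 was a dim member, while Or2ak6 and Or2t48 each had 2 copies tied. Counting ties, 11 different copies were closest, of which 8 were not members, 2 were dim members and 1 was bright. The members were thus 3 of 11 (27.3%), beside 21.0% of all receptor probes.

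In the pairs printed above, Or2ak6 and Or2ak6e share all 50 bases and, once aligned, 85.6% of the 250 bases before the start, and the probe named for Or2ak6e read 1.92 and 4.29 beside the 3080 and 3640 of Or2ak6. Or2ak4c has the same 50 bases, with 68.0% of the upstream bases shared, and was a dim member at 20.6 and 16.5. Or2t48e and Or2t48b share 48 bases, and the probe for Or2t48b read 2.42 and 3.68. Or4f7c and Or4f7b also share 48, and the probe for Or4f7b read 2.45 and 3.12. Or13a27e and Or13a23 share 48 as well, and Or13a23 was a member at 30.9 and 34.5. Or8w1b is less close to its copy, with 42 bases shared, and the probe for Or8w1 read 4.67 on the vehicle array and 13.8 on the pioglitazone array. Or2t48, at 245 and 282, was equally close to the bright Or2t48e and to Or2t48b, with 47 bases shared with each. Whether a bright probe also binds transcripts of copies was not tested.

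**Figure D3:**
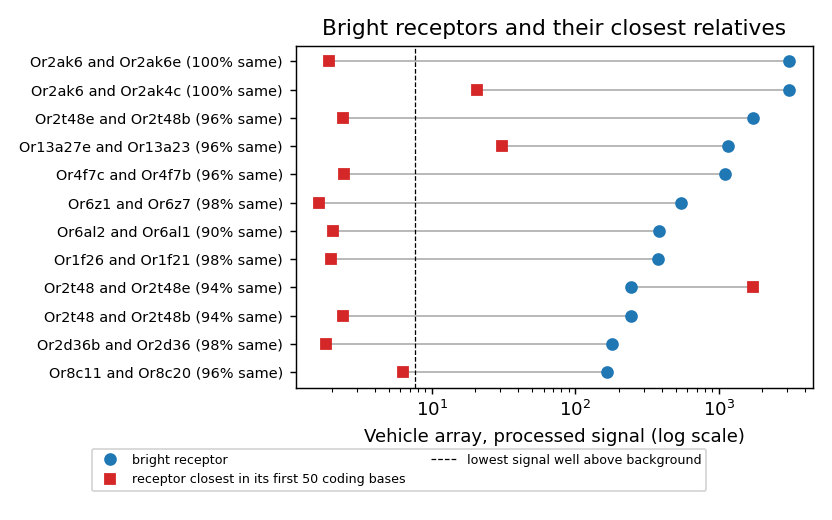
Processed signal on the vehicle array (log scale) of 10 bright receptors (circles) and of the receptor or tied receptors that share the most of their first 50 coding bases (squares), with the share in parentheses. Of the 11 copies 8 lie to the left of the dashed line, the lowest signal marked well above background (7.66); Or2ak4c, Or13a23 and Or2t48e lie to its right, and Or2t48b is drawn for both its pairs.

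The olfactory receptors best known from the kidney were dim here. Olr59, for which the gene table gives the synonyms Olfr78 and Or51e2, read 13.4 on the vehicle array and 12.7 on the pioglitazone array, a log2 difference of -0.16 with a technical error of 0.32. Or51e1, of the same family 51, read 18.8 and 25.6, a log2 difference of 0.37 with an error of 0.26. Neither difference reached 2 technical errors. In whole kidney RNA, fewer cells of a type and less RNA per cell cannot be told apart.

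Between the arrays the members were slightly higher with pioglitazone as a group, a shift that depended on the filter and the background correction. After each array was scaled on its 75th percentile, the median log2 difference, pioglitazone minus vehicle, was 0.15 over the 229 members with quartiles of -0.01 and 0.26, and 169 (73.8%) were positive. Over the 28531 other measured probes the median was 0.01 and 52.9% were positive. A single member's technical error had a median of 0.24, and 214 of the 229 members lay within 2 errors of 0. Of the 28531 other measured probes, 26895 did so, a similar share. The direction was thus shared by many probes whose own differences were within their error. Over all 1090 receptor probes, with no filter on dim probes, the median turned to -0.17, beside -0.03 over all 40998 probes.

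Against other probes of equal signal, the low-signal control, the shift was no smaller. All measured probes were split into 20 bands by mean log2 signal, and the median of the other probes in its band was subtracted from each member. The median remainder was 0.18, and 179 of 229 members (78.2%) lay above the other probes of their band. With normexp background correction it was 0.0593. For the bright receptors the remainder was 0.10 with 17 of 21 above, and for the 208 members that were not bright it was 0.19 with 162 above.

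The difference ran through the signal ranges. At a mean signal under 15 the 60 members had a median of 0.11 and other probes -0.07, and at 15 to 30 the 65 members had 0.19 and the others -0.03. At 30 to 60 the medians were 0.14 for 49 members and -0.03 for the others, and at 60 to 150 they were 0.17 for 34 members and -0.01. From 150 to 500 they were 0.08 for 12 members and 0.01, and from 500 to 5000 they were 0.16 for 9 members and 0.04. The members were above the others in each of the 6 ranges, by 0.07 to 0.22, while the quartiles of the other probes spanned -0.29 to 0.15 in the dimmest range.

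**Figure D4:**
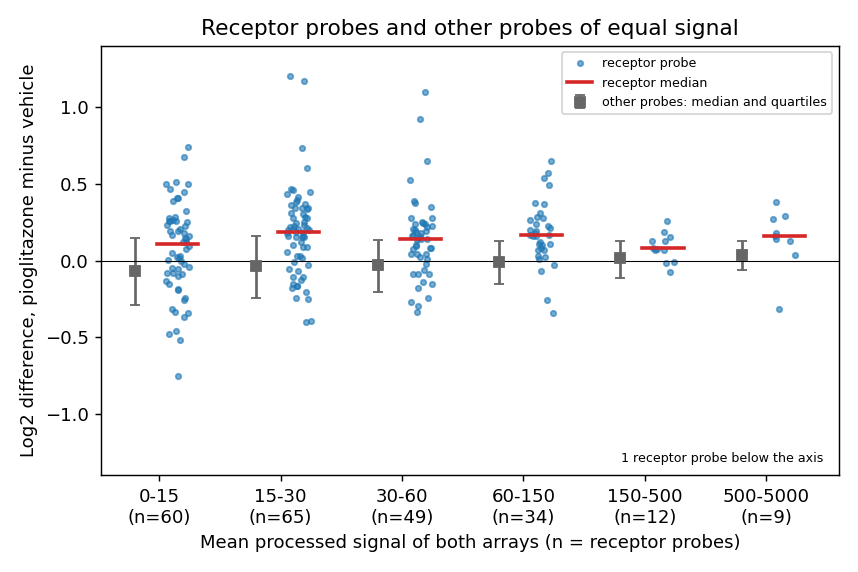
Log2 difference between the arrays, pioglitazone minus vehicle, against the mean processed signal in 6 ranges. Blue points are single olfactory receptor probes with their median in red, and grey squares with bars are the median and quartiles of all other measured probes; the receptor median lies above the grey square in each range, and Or2ak4 (-3.23) lies below the axis.

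The shift was not limited to a region of the array or to a family. When the array was cut into 10 bands of rows, the members' median remainder was positive in each, from 0.08 to 0.29. Class I and class II both had a median difference of 0.15, and among families with 10 or more members the medians ran from 0.02 (family 1, 16 members) to 0.25 (family 8, 21 members). The 5 Vom2r probes had a median of 0.16, or 0.20 above other probes of equal signal, the 3 Taar probes 0.10 and 0.11, and the single Vom1r probe 0.22 and 0.24. With 1 array per group, a shift of this size cannot be told apart from a difference between the arrays that affects such probes.

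Single members rarely passed the limits. A receptor was called higher or lower where it was at least 1.5-fold apart and past 2 technical errors. Of the 229 members 9 were called higher (3.93%), against a background of 0.935% of all measured probes, and 2 were called lower (0.873%), against 1.85%. These background shares come from probes brighter than the members. In other probes weighted to the members' 6 signal ranges, the shares were 1.77% higher and 3.42% lower. With normexp background correction 0 members were called higher and 1 lower, against 26 and 87 of all 28760 measured probes. With no filter on dim probes, 23 of 1090 receptor probes were called higher and 11 lower, against 423 and 679 of all 40998 probes. Of the 11 calls 7 had both signals below 50. Among all 229 members, 166 on the vehicle array and 155 on the pioglitazone array were below 50. At 2-fold in either direction 4 members passed (1.75%), against 0.56% of all measured probes and 1.08% of other probes at the members' signals. With normexp 0 members passed, beside 15 of all measured probes. At 1.5-fold in either direction without the error limit 12 passed (5.24%), against 3.2% of all measured probes and 6.63% of other probes at the members' signals, so by this limit the members did not exceed probes as dim as they were.

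The largest positive differences were in receptors read near the lower end of the scale. Or10d5j read 11.4 on the vehicle array and 27.7 on the pioglitazone array, a log2 difference of 1.20 with a technical error of 0.32. Or2y1i read 12.9 and 30.7 (1.17, error 0.30), and Or12j3 read 21.3 and 48.3 (1.10, error 0.24). These 3 were the members more than 2-fold higher with pioglitazone. Or13a25 read 29.0 and 58.1, a log2 difference of 0.92. The brightest of those called higher was Or8u9, with 47.5 and 78.7, a difference of 0.65 that Or10d1g, with 39.4 and 65.3, shared. The other 3 were dimmer on both arrays: Or4c52 with 9.19 and 16.2, Or12d13 with 11.4 and 20.0, and Or10a5 with 11.3 and 19.1. Their differences were 0.74, 0.73 and 0.68.

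Of those called lower, Or2ak4 read 85.2 on the vehicle array and 9.57 on the pioglitazone array, a log2 difference of -3.23 with a technical error of 0.32. Its spot stood 76.5 and 17.0 above local background before correction. Its subfamily member Or2ak4c read 20.6 and 16.5, a difference of -0.40 that was not called. Or2z2 read 13.2 and 8.27, a difference of -0.75 with an error of 0.37. Next came Or1e32 with 11.3 and 8.32 (-0.52), Or13a18b with 15.2 and 11.5 (-0.48) and Or5bb12 with 12.7 and 9.77 (-0.46), none of which was called.

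**Figure D5:**
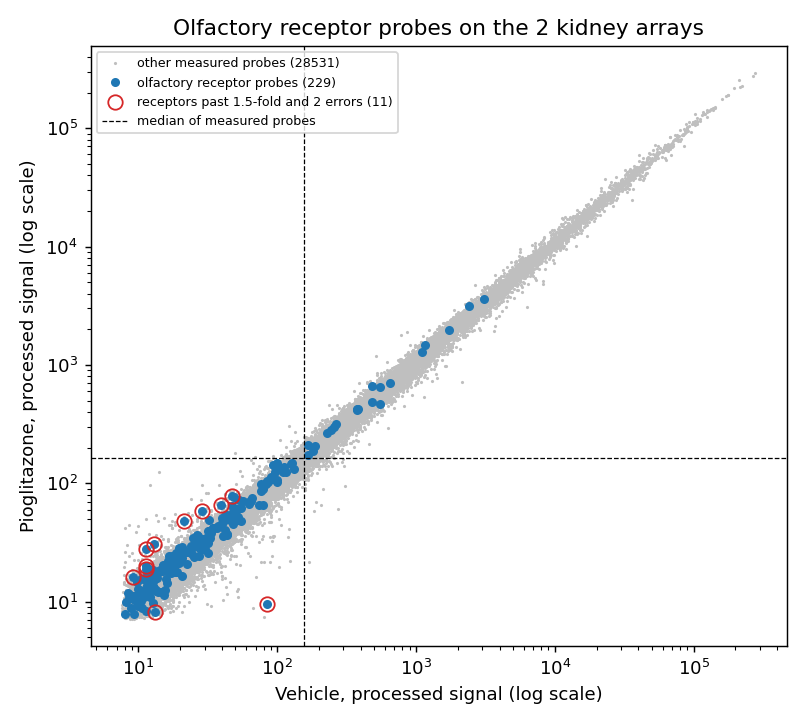
Processed signal on the pioglitazone array against the vehicle array, both on log scales, for 229 olfactory receptor probes (blue) and 28531 other measured probes (grey). Red circles mark the 11 receptors 1.5-fold apart and past 2 technical errors, and dashed lines the medians of measured probes (157 and 163); all 11 lie below both medians.

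Receptors seen on 1 array alone have only a bound. There were 48 on the pioglitazone array alone (4.4% of receptor probes) and 15 on the vehicle array alone (1.38%). Over all 40998 probes the lean was the same way, with 1027 (2.50%) and 436 (1.06%). For 4 of the 48 the bound was under 1, so no fold is given. On the pioglitazone array alone, Or4p18 read 69.7 (1.56 on the other array, not well above background), at least 8.62-fold higher, Olr35 read 28.9 (3.94), at least 3.57-fold, and Or5w12 read 23.9 (6.91), at least 2.95-fold. On the vehicle array alone, Or5b102 read 58.5 (6.71), at least 8.63-fold higher, Or2b4 read 34.7 (1.47), at least 5.12-fold, and Or8k27 read 33.1 (5.57), at least 4.88-fold. Bounds compare the scaled signal with the higher of the dim probe's own signal and the lowest signal marked well above background on that array.

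Position on the array moved with the receptors seen on the vehicle array alone. The sixth and the seventh of the 10 row bands held 12 of these 15 receptors (80.0%), among them Or5b102, Or2b4 and Or8k27, but 8 of the 48 on the pioglitazone array alone (16.7%) and 226 of all 1090 receptor probes (20.7%). Over all probes, these bands held 118 of 436 (27.1%) seen on the vehicle array alone. Their part in the result was not tested. Of the members 57 (24.9%) lay there, and the median remainder above equal signal was 0.19 over the 172 members elsewhere and 0.15 over these 57.

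The genes through which olfactory receptors signal were mostly weak or undetected. Gnb1, Pde1c, Reep1, Ebf2, Emx2 and, of the testis genes below, Odf1 had 2 named probes each, and a single probe is given for each. Of 21 listed genes 17 had a named probe and 10 were measured on both arrays. None of the 10 was called higher or lower, with the background given above, 3 were positive, and their median difference was -0.03 beside 0.02 for all measured probes. Adenylyl cyclase 3 (Adcy3), which makes the second messenger cAMP, read 26.9 and 29.0 (log2 difference 0.03), and Ric8b, an exchange factor that promotes Golf signalling, read 30.8 and 22.5 (-0.53, past 2 times its error of 0.24 but under the 1.5-fold limit). The receptor transporter Rtp1 read 10.0 and 12.0 (0.18).

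Other listed genes are also used outside olfactory neurons. The G protein subunit Gng13 read 7280 and 8900 (0.21), Gnb1 1730 and 1790 (-0.03), and the transcription factor Emx2, needed for kidney development, 8310 and 8530 (-0.04). The phosphodiesterases Pde1c and Pde4a read 64.4 and 65.2 (-0.06), and 68.8 and 68.0 (-0.10). The transcription factors Ebf1 and Ebf2 read 161 and 166 (-0.03), and 18.7 and 19.5 (-0.02).

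The channel subunits were not well above background on either array, with 1.88 and 1.81 for Cnga2, 7.18 and 4.73 for Cnga4, and 2.05 and 1.82 for Cngb1. The transcription factor Lhx2 was also at this level, with 1.66 and 1.52. Omp, the marker of mature olfactory neurons, read 7.67 and 10.1, Reep1 6.68 and 8.68, and the receptor kinase Grk3 5.07 and 7.30, all 3 well above background on the pioglitazone array alone. Gnal, Ano2, Slc24a4 and Rtp2 had no named probe.

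Markers of other tissues were read as levels. Of 6 olfactory neuron markers, Gng13, Rtp1 and Gap43 (10.8 and 15.2) were measured on both arrays, Omp on 1, Cnga2 on neither, and Stoml3 had no named probe. Of 4 genes of testis and sperm, where olfactory receptors are also transcribed, Prm1 read 30.5 and 34.7 and Prm2 9.51 and 8.21, while Tnp1 (1.53 and 5.31) and Odf1 (1.74 and 1.62) were not well above background on either array.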

How the data were processed

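For each array the authors deposited 1 scanner output with linear spot intensity. The software was Agilent Feature Extraction 10.7.3.1, per the submitters' processing notes, and its processed signal is corrected for background and for trends across the slide, per the file headers. The deposited value table was identical to this signal for all 45018 features (column medians 46.8 for vehicle and 47.7 for pioglitazone), so it has no log scale or centring. Of 43379 spots besides controls, 31127 (71.8%) and 31728 (73.1%) were well above background and 0 were saturated. Spots with an outlier flag (149) were left out, and replicate spots were averaged. Each array's 75th percentile was subtracted on the log2 scale, a shift of 0.08. Unversioned RefSeq accessions in a GRCr8 gene table named 16959 of 40998 probes. Python 3.11.15 with pandas 2.3.3 was used, and R 4.3.3 with limma 3.58.1 for alternatives. On simulated data, the recovery of planted changes by a 2-fold limit and of a planted receptor shift was tested. The limit of 1.5-fold and 2 technical errors was not tested there. The simulated noise was capped at less than the members' median technical error. The members and lists were chosen with earlier results of these data known.

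Genes named are all bright or called members, the 5 largest differences each way, the 3 dimmest members, the 3 receptors brightest by mean log2 signal that failed the rule, the 3 largest bounds each way, Or51e1, Or51e2 and listed signalling genes. Copies of bright receptors, gene neighbours and Or2ak4c were named after their values were seen. Planned protein identity was replaced by coding start identity, and Vmn symbols, which had 0 probes, by the rat names Vom1r and Vom2r.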

Additional observations from a re-analysis of the deposited data

How the results depend on the processing

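The median remainder above other probes of equal signal was 0.17 to 0.19 under every alternative except normexp background correction with an offset of 50. There it was 0.0593, and that offset shrinks differences of dim probes by construction. Where only the constant subtracted from an array was changed or left out, the remainder had to stay at 0.1831. Such a constant cancels against the other probes of the band, so these settings could not test the remainder. Quantile scaling and cyclic loess could move it, and gave 0.18 and 0.1811. The median difference of the members was 0.0596 with normexp and 0.23 without scaling, where the median of all measured probes was 0.09. Over all 1090 receptor probes with no filter on dim probes it turned to -0.17, beside -0.03 over all probes. Most of these receptor probes lie at background. Receptors called higher numbered 7 to 13 elsewhere, but 0 with normexp, 23 with no filter and 0 among those above the median signal. Receptors called lower numbered 1 with median scaling, without scaling, with quantile scaling, cyclic loess or normexp, and without the sixth and the seventh row band, 11 with no filter and 0 above the median signal. With normexp 0 were 2-fold apart, beside 15 of all measured probes. Over all probes in each setting, 26 were called higher and 87 lower with normexp, and 423 and 679 with no filter. Elsewhere the numbers called higher over all measured probes ran from 83, counted by gene, to 402, without scaling. Called lower were 415 with median scaling, 355 without scaling, 467 with quantile scaling and 498 with cyclic loess. Without the sixth and the seventh row band 391 were called lower. Above the median signal 18 of all probes were called higher and 62 lower. Bright receptors numbered 5 above the 75th percentile. Detected receptors numbered 426 by the software's flag for a signal significantly different from background, an alternative chosen after seeing the data. Except where stated, the cause was not tested. A gene name from the files, the software's p-value and normexp on mean signals were not run, since the columns used here hold none of them. No paired analysis was possible because there is 1 array for vehicle and 1 for pioglitazone. Depth of signal is a limit as well: 100 of 229 members read below 20 on the vehicle array.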
